A study of Mus musculus with 6 samples.

Results

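The 4 dopamine receptor genes Drd1, Drd2, Drd3 and Drd5 were examined, chosen by gene symbol from the 24841 genes of a single-nucleus RNA sequencing table of mouse striatum. Their levels were described in all nuclei of the 6 libraries, by cell class, by genotype and by co-detection within single nuclei. The libraries came from frozen striatum of 3 wild type and 3 Celsr3 heterozygous biological replicates, 1 library each; Celsr3 encodes a large cadherin of the cell surface. Age, sex, strain, the kind of Celsr3 allele and any preparation batch are not given in the labels. The title of the series names tic-related behaviours and dopaminergic changes in the striatum as its subject. Values are depth-corrected UMI values rounded to whole numbers, levels are means of these values per nucleus, and a receptor was called detected in a nucleus at a value of 1 or more.

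Dopamine receptors are G protein-coupled receptors of 2 families. The D1-like receptors, encoded by Drd1 and Drd5, couple to Golf and Gs and raise cyclic AMP, and the D2-like receptors, encoded by Drd2 and Drd3, couple to Gi and Go and lower it. In the striatum the medium spiny neurons of the direct pathway are known for Drd1 and those of the indirect pathway for Drd2, cholinergic interneurons for Drd2 and Drd5, and the ventral striatum with its islands of Calleja for Drd3.

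After removal of doublets, 48044 of 48834 nuclei were kept, between 7618 and 8719 per library, and 274 barcode sequences occurred in more than 1 library. The median number of genes detected per nucleus was 2434 in wild type replicate 1 and 2830 to 3003.5 in the other 5 libraries. Wild type replicate 1 stood apart in a second way: without it, limma called 197 genes in nuclei like D1 medium spiny neurons (MSN) and 142 in their D2 counterparts, against 2 (Mid1 and Gm15726) and 1 (Mid1) with it; these genes were named after their values were seen. Celsr3 itself, the targeted gene, averaged 0.165 ± 0.0149 in wild type D1 MSN-like nuclei against 0.0936 ± 0.0122 in heterozygous ones (SD over 3 libraries each), or 56.7% of the wild type level. It was at 62.0% of that level in D2 MSN-like and 69.2% in all nuclei. The heterozygous libraries lay below without overlap in all 3, as for 5.19%, 5.46% and 4.43% of all genes tested. Classes were named from marker genes with the 4 receptors left out of both clustering and naming, so that a receptor's level in a class was not used to form it. They comprised 8503 D1 MSN-like nuclei (clusters 1, 6 and 12), 7056 D2 MSN-like nuclei (clusters 0 and 10), 1145 eccentric MSN-like nuclei (cluster 14) and 196 cholinergic interneuron-like nuclei (cluster 31), beside other neurons and glia, and are called the D1, D2, eccentric and cholinergic classes from here on.

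On the GRCm38 assembly, GENCODE places Drd1 on the minus strand at chr13:54051183-54055705, Drd2 on the plus strand at chr9:49340627-49408177, Drd3 on the plus strand at chr16:43754026-43822932 and Drd5 on the plus strand at chr5:38319367-38322518. Drd5 has 1 exon, Drd1 has 2, and Drd2 and Drd3 have up to 8. The RefSeq start-site windows of Drd2 and Drd3 are shown because the genes of these D2-like receptors differ widely in base composition there. Each is printed on the plus strand of GRCm38.p6 up to the first annotated exon base that its window holds, with the GC box GGGCGG or its complement CCGCCC in capitals.
Drd2, chr9:49340153-49340359: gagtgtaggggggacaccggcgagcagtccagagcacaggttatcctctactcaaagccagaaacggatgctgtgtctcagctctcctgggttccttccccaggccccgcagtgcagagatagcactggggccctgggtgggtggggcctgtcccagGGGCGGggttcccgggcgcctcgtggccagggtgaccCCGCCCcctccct
Drd3, chr16:43761971-43762207: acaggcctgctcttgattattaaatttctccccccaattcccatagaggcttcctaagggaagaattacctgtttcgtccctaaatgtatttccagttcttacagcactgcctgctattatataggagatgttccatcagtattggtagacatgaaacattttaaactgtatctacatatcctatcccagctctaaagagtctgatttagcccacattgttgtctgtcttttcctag
The full window of 250 bases before the RefSeq start held 68.8% G and C for Drd2, with 2 GC boxes, and 39.2% for Drd3, with 0 GC boxes and 1 CpG. Searched on both strands, GGGCGG occurred in 32.7% of 32851 windows of the same length, whose median G and C content was 52.4%. The RefSeq window of Drd3 lies inside the gene as GENCODE draws it, downstream of the GENCODE start, and no measurement here shows which start these nuclei used.

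Drd1, the main D1-like receptor, was highest in the D1 class. In replicate order its level there was 1.08, 0.999 and 0.856 for wild type, then 1.01, 1.01 and 1.20 for heterozygous libraries. Over the 6 libraries this was 1.03 ± 0.113 (SD, n = 6), and Drd1 was detected in 64.6% of the nuclei. The eccentric class came next at 0.689 ± 0.0701, and every one of its 6 libraries, at 0.609 to 0.801, lay below the lowest D1 MSN-like library. Next, at 0.401 ± 0.0970 with 32.8% of nuclei positive, was a GABAergic interneuron-like cluster of 259 nuclei whose 10 leading genes include Nos1, Chodl, Npy and Sst, known from striatal interneurons of the somatostatin type. A glutamatergic neuron-like cluster of 271 nuclei, led by Nr4a2 and Smoc2, held 0.339 ± 0.224, a spread too wide to place it apart from its neighbours in this order. The unnamed cluster 11 stood near it, at 0.302 for wild type and 0.387 for heterozygous libraries.

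The named glial classes and the other named neuronal classes, each taken as a whole, held far less Drd1 than the D1 class. Microglia-like nuclei stood at 0.190 ± 0.0399, glutamatergic neuron-like nuclei at 0.174 ± 0.0687, oligodendrocyte-like nuclei at 0.151 ± 0.0377 and astrocyte-like nuclei at 0.132 ± 0.0297, and these neighbours did not differ beyond their spread. Drd1 was detected in 9.02% of microglia-like nuclei at a median of 1896 genes and in 10.0% of the D2 class at a median of 3266 genes, where its level was 0.106 ± 0.0180. Microglia are a type that should lack the receptor, and the part of free RNA in the Drd1 values of either class was not tested. The cholinergic class, with 7.65% positive, was lowest among the named neuronal classes at 0.0780 ± 0.0296. Of all Drd1 signal, 58.1% lay in the D1 class.

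Drd5, the other D1-like receptor, was rare. It was detected in 159 of 48044 nuclei (0.331%), with a highest value of 3 in any nucleus. Its level was highest in the cholinergic class, the large acetylcholine neurons of the striatum, at 0.125, 0.0513 and 0.103 in wild type and 0.0357, 0.158 and 0.0526 in heterozygous libraries. These levels rest on 14 of the 196 nuclei (7.14%), and the groups overlap. Among named classes GABAergic interneuron-like nuclei at 0.00664 ± 0.00748, neuroblast-like nuclei at 0.00591 ± 0.00939 and glutamatergic neuron-like nuclei at 0.00535 ± 0.00476 followed, and did not differ beyond their spread. In the D1 class Drd5 stood at 0.00202 ± 0.00116 (17 of 8503 nuclei) and in the D2 class at 0.00146 ± 0.00132 (10 of 7056 nuclei). No microglia-like nucleus of 2351 had a value of 1 or more, which allows a share of up to 0.128% with such a value and sets no limit on how many express the gene. The largest part of the Drd5 signal, 22.9%, came from cluster 5, an unnamed cluster of 2808 nuclei whose leading genes include Baiap3 and Glra3, in which 37 nuclei (1.32%) were positive. Cluster 5 had 6 eccentric MSN markers high, and only a limit on Ppp1r1b set after values were seen kept it out of the eccentric class.

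Drd2, the main D2-like receptor, separated the classes most sharply. In the D2 class its level was 3.60, 4.20 and 4.04 in wild type and 3.81, 4.02 and 4.44 in heterozygous libraries, or 4.02 ± 0.294 over all 6, with 96.2% of nuclei positive. The cholinergic class held 1.96, 3.15 and 2.76 in wild type and 2.82, 2.13 and 3.03 in heterozygous libraries, or 2.64 ± 0.486, with 75.0% positive. Every D2 MSN-like library lay above every cholinergic one, and every cholinergic one above every other class shown in the plot of levels by class. Far below these, Drd2 stood at 0.0994 ± 0.0140 in the D1 class (7.42% positive), 0.0808 ± 0.0402 in glutamatergic neuron-like nuclei (5.63%) and 0.145 ± 0.0261 in microglia-like nuclei (6.93%). By library the D1 class ran from 0.0862 to 0.123 and microglia from 0.119 to 0.187. By level microglia were thus higher by more than either spread, while the ranges touched. The share of positive nuclei had the opposite order, at 6.93% in microglia and 7.42% in the D1 class. Microglia had a median of 1896 genes, against 3233 to 3505.5 in the clusters of the D1 class. The part of depth correction in their higher level was not tested. The next highest clusters after the cholinergic one were the unnamed cluster 11 at 0.356 ± 0.101 and OPC-like nuclei at 0.272 ± 0.342, a mean raised by 1 library of 28 nuclei. Cluster 5 held 0.206 ± 0.0405. The D2 class held 83.8% of all Drd2 signal.

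**Figure D1:**
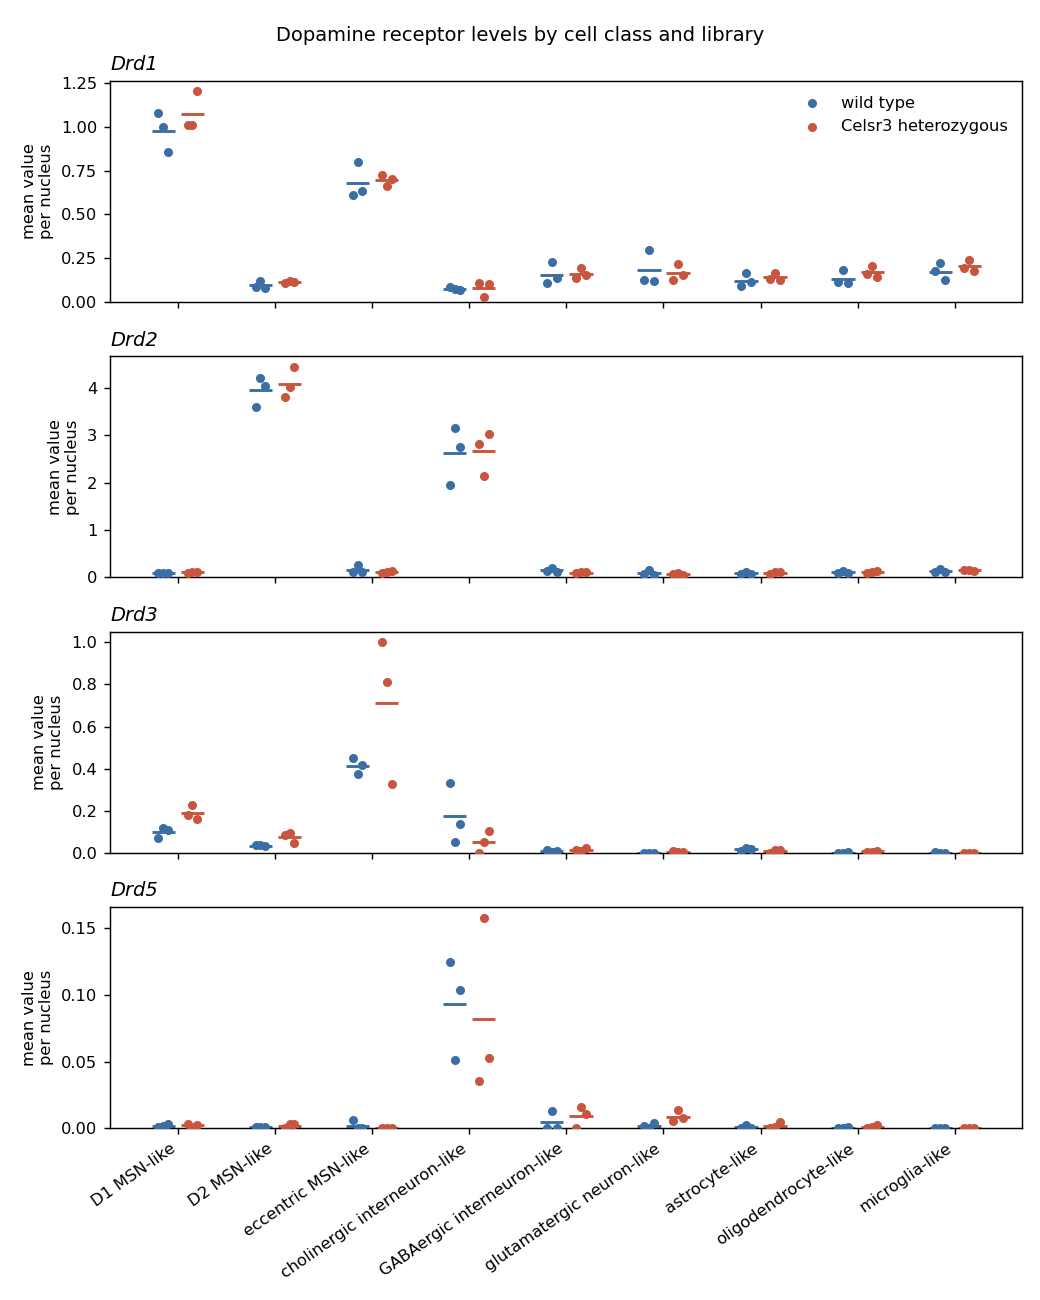
Mean deposited value per nucleus (vertical axes, linear, each from 0) of Drd1, Drd2, Drd3 and Drd5 in 9 cell classes. Each point is 1 library, bars are group means, with 3 wild type libraries in blue and 3 Celsr3 heterozygous libraries in red. Drd2 is high in 2 classes, D2 MSN-like and cholinergic interneuron-like, while Drd3 peaks in the eccentric class, where the heterozygous libraries spread from 0.326 to 1.00.

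Drd3, a D2-like receptor of high affinity for dopamine, followed neither Drd1 nor Drd2. Among the named classes it was highest in the eccentric class at 0.450, 0.375 and 0.418 in wild type and 1.00, 0.811 and 0.326 in heterozygous libraries, and was detected in 33.8% of these nuclei. Heterozygous replicates 1 and 2 lay above all wild type libraries and replicate 3 below them, so the groups overlap. The D1 class came next at 0.144 ± 0.0573 (10.5% positive), and the lowest eccentric library lay above the highest D1 MSN-like one, at 0.230. The cholinergic class at 0.113 ± 0.118 and the D2 class at 0.0549 ± 0.0277 (289 of 7056 positive) did not differ beyond their spread from each other. Glutamatergic neuron-like nuclei held 0.00308 ± 0.00361 and microglia-like nuclei held 1 positive nucleus of 2351 (0.0425%), a far lower share than for Drd1 or Drd2. Of the Drd3 signal, 41.1% lay in the D1 class, 24.1% in the eccentric class and 12.6% in the D2 class.

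Within the D1 class Drd3 was unevenly spread. Cluster 6, led by Pdyn, the gene of prodynorphin, held 0.322 ± 0.127 and 23.3% positive nuclei. Cluster 12, led by Impg1 and Cd55b, held 0.148 ± 0.0660, and cluster 1, led by Gpr139 and Dkk2, held 0.0376 ± 0.00826. In each of the 6 libraries cluster 6 lay above cluster 12 and cluster 12 above cluster 1. Drd1 stood at 1.12 ± 0.168, 1.10 ± 0.171 and 0.953 ± 0.0974 in the same 3 clusters. By mean it too was lowest in cluster 1, though its levels differed far less in proportion than those of Drd3. The order of Drd1 within each library is not given here. A list of 4 dorsal striatum genes, which holds Cnr1 and Gpr155, summed to at least 8.14 per nucleus in every library of cluster 1, while in cluster 6 it averaged 3.34 for wild type and 3.40 for heterozygous libraries. A list of 10 ventral striatum genes summed to 0.395 to 0.604 in cluster 1 and 1.31 to 1.67 in cluster 6. Cluster 12, between them in Drd3, held 6.56 to 10.4 for the dorsal list and 0.548 to 0.837 for the ventral list.

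Drd3 also appeared outside the named MSN classes. Levels of the clusters in this paragraph are means over all their nuclei, to which libraries contribute unequally. In cluster 5 the level was 0.111 (0.128 ± 0.0392 as the mean of 6 libraries), with 198 of 2808 nuclei (7.05%) positive, and in cluster 22, an unnamed cluster whose leading genes include Abhd12b, Lhx9, Lef1 and Shox2, it was 0.134, with 60 of 700 positive and 0 nuclei from heterozygous replicate 1. Cluster 32, of 188 nuclei led by Ebf2 and Ebf3, held 0.367, but 153 of its nuclei came from heterozygous replicate 3, and the mean of its 6 libraries was 0.720 ± 0.834, too wide a spread to place it against the eccentric class. The Drd3-positive nuclei of cluster 22 differed from the rest of the cluster: Cadps2 averaged 5.62 in them and 0.302 in the negative nuclei, and Rgs6 averaged 1.52 against 12.5. These genes were chosen after their values were seen. Among astrocyte-like nuclei, Drd3 lay in cluster 21, led by Thbs4, Veph1 and Myoc and holding Gfap among its leading genes, at 0.0819 against 0.00194 in cluster 3 and 0.000682 in cluster 9. Within cluster 21 the 39 positive nuclei had less Gfap, a marker of reactive and white-matter astrocytes, than the 718 negative ones (0.128 against 1.24), and less Aqp4, the astrocyte water channel (0.923 against 3.29), both chosen after values were seen. The astrocyte glutamate transporter Slc1a3 was at 9.26 and 8.35.

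The design compares the 2 genotypes. Of the 3 receptors that passed the filter on low values (Drd1, Drd2 and Drd3), 0 passed limma's test at an adjusted p of 0.05 in all nuclei, in the D1 class or in the D2 class. Among all genes tested 0% were called in all nuclei, 0.0149% in the D1 class and 0.00786% in the D2 class. At an unadjusted p under 0.05, 1 of the 3 receptors, Drd3, passed in each of the 3 populations, beside 1428 of 14401 (9.92%), 1321 of 13435 (9.83%) and 1078 of 12723 genes (8.47%). Drd5 did not pass the filter in any of these populations and was not tested by limma.

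For Drd1 and Drd2 the genotypes lay closer together than their libraries did, each in its own neurons. In the D1 class the Drd1 level was 0.978 ± 0.112 for wild type against 1.07 ± 0.112 for heterozygous libraries (SD over 3 libraries each), a log2 difference of 0.14 ± 0.11 (SE, limma adjusted p = 0.699). It was 0.044 without wild type replicate 3, 0.052 without heterozygous replicate 3 and 0.21 without wild type replicate 1. In the D2 class Drd2 was 3.95 ± 0.312 and 4.09 ± 0.322, a log2 difference of 0.052 ± 0.083 (limma adjusted p = 0.907). The sign of that difference depended on the libraries used: it was -0.013 without wild type replicate 1 and -0.0085 without heterozygous replicate 3. In the cholinergic class Drd2 was 2.62 ± 0.609 and 2.66 ± 0.469 (limma adjusted p = 0.975). Over all nuclei the log2 difference was 0.18 ± 0.15 for Drd1 (limma adjusted p = 0.652) and -0.11 ± 0.21 for Drd2 (limma adjusted p = 0.830). A mean over all nuclei depends by its definition on the share of each class. The D2 class made up 15.8% ± 4.55 of wild type and 13.6% ± 1.61 of heterozygous nuclei, overlapping groups (exact permutation p = 0.6). The Drd2 value was 0.041 with every library given the same cluster shares, those of all libraries pooled. That setting leaves out clusters with under 10 nuclei in any library. The part of class shares in the Drd2 value was not tested. Without wild type replicate 2, the library with the largest share of D2 nuclei, the Drd2 value over all nuclei was 0.13 and that of Drd1 0.36. Without wild type replicate 3 that of Drd1 was 0.049.

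Drd3 was higher in the heterozygous libraries by level, though not past the adjusted threshold. In the D1 class it stood, in replicate order, at 0.0697, 0.118 and 0.107 for wild type, then at 0.179, 0.230 and 0.161 for heterozygous libraries. The lowest heterozygous value thus exceeded the highest wild type value. Among all genes tested in the D1 class, 11.1% lay above in this way, and of the 3 receptors tested 1 did. The log2 difference was 0.90 ± 0.20 (SE; limma adjusted p = 0.219), beside a median of 0.054 over all genes. An exact two-sided permutation test gave p = 0.1, the smallest that 3 against 3 libraries allow. The share of the D1 class with Drd3 averaged 7.61% ± 1.39 for wild type against 12.9% ± 2.05 for heterozygous libraries (SD over 3 libraries each).

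The D2 class gave a like difference at lower levels. Drd3 stood there at 0.0354, 0.0362 and 0.0315 in wild type and 0.0837, 0.0957 and 0.0466 in heterozygous libraries, again without overlap, which 8.81% of all genes tested showed in that direction. The wild type libraries lay close together, and heterozygous replicate 3 was the nearest to them. The log2 difference was 0.90 ± 0.23 (SE; limma adjusted p = 0.276). Subtracting the D2 class from the D1 class, this genotype value was 0.0010 ± 0.23 for Drd3 (limma adjusted p = 1), -0.11 ± 0.23 for Drd1 (adjusted p = 0.992) and 0.14 ± 0.68 for Drd2 (adjusted p = 0.993), with 0% of 12670 genes called. Without heterozygous replicate 2 that Drd2 value was 0.024. In this fit limma's variance trend ran on the difference between the classes, where Drd2 is extreme. The SE of 0.68 and its p therefore do not measure the spread of Drd2 between libraries, whose SE was 0.14 in the D1 class and 0.083 in the D2 class. Over all nuclei Drd3 averaged 0.0437 ± 0.00785 for wild type against 0.0835 ± 0.0259 for heterozygous libraries (limma adjusted p = 0.457), without overlap, as for 14.8% of all genes. Its log2 difference of 0.77 was 0.46 with the same cluster shares in every library. At a pseudocount of 0.05 it was 0.49, and the D2 class gave 0.55. Weighting libraries by limma's array weights moved Drd3 past the threshold in the D1 class (adjusted p = 0.0349) and in the D2 class (adjusted p = 0.0332). With these weights 357 of 13435 and 184 of 12723 genes were called in those classes. Without wild type replicate 1, the adjusted p of Drd3 was 0.0641 in the D1 class and 0.146 in the D2 class.

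**Figure D2:**
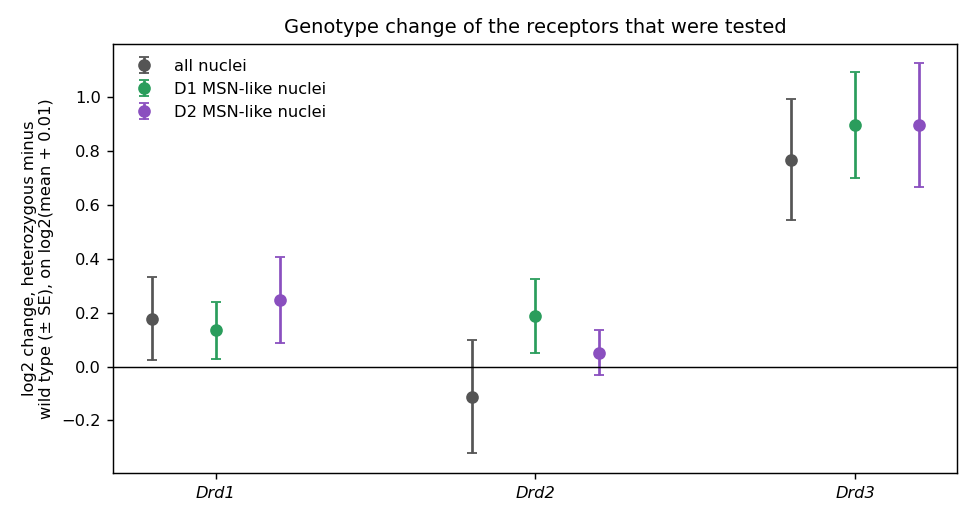
Log2 difference, heterozygous minus wild type, of the 3 receptors tested (vertical axis, on log2 of the mean value plus 0.01), with SE as bars, in all nuclei, the D1 class and the D2 class. Drd3 stands at 0.77 to 0.90 in the 3 populations, Drd1 at 0.14 to 0.25 and Drd2 between -0.11 and 0.19, and none passed the adjusted threshold.

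By cluster, the Drd3 log2 differences that could be tested were of like size in the D1 and D2 classes. In cluster 12 of the D1 MSN-like class the levels were 0.0593, 0.0883 and 0.125 in wild type and 0.199, 0.216 and 0.199 in heterozygous libraries, without overlap (8.37% of genes tested there), with a log2 difference of 1.14 ± 0.27 (limma adjusted p = 0.210, with 0.014% of genes called). In cluster 6 they were 0.121, 0.323 and 0.261 against 0.452, 0.460 and 0.314, so heterozygous replicate 3 lay within the wild type range, with a log2 difference of 0.86 ± 0.30 (limma adjusted p = 0.426, with 0.00944% of genes called). Cluster 1, the most numerous of the 3 D1 MSN-like clusters, held 0.0371, 0.0367 and 0.0316 against 0.0266, 0.0493 and 0.0444, with the groups overlapping, and Drd3 missed the filter there. In cluster 0 of the D2 MSN-like class the levels were 0.0382, 0.0396 and 0.0341 against 0.0910, 0.0974 and 0.0469, without overlap, as for 9.74% of genes tested there (0.00823% called by limma), with a log2 difference of 0.85 ± 0.24 (limma adjusted p = 0.353). Cluster 10 held 0.0203, 0.0207 and 0.0214 against 0.0593, 0.0903 and 0.0455, also without overlap (8.31% of genes), and Drd3 missed the filter.

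Values of genes that mark striatal regions ran with parts of this pattern, and their part in it was not tested. Within the D1 class cluster 6 made up 35.7%, 25.7% and 27.7% of wild type nuclei and 29.9%, 38.7% and 34.0% of heterozygous nuclei. The summed level of 4 islands of Calleja genes in cluster 6 was 0.249, 0.290 and 0.258 in wild type and 0.649, 0.509 and 0.251 in heterozygous libraries, and it was high in heterozygous replicates 1 and 2, where Drd3 in cluster 6 was also highest. Cpne4 made up the largest part of it, at 0.472 and 0.296 in those 2 libraries. The eccentric class held far more of the same sum, at 3.17, 1.07 and 2.74 in wild type and 2.94, 2.92 and 1.89 in heterozygous libraries, overlapping groups. In clusters 0, 10 and 12, where Drd3 did not overlap, the same sum did: it was 0.504, 0.379 and 0.341 against 0.378, 0.412 and 0.430 in cluster 0. The summed level in cluster 10 ran from 0.303 to 0.412 against 0.323 to 0.439, and in cluster 12 from 0.156 to 0.263 against 0.184 to 0.304. Rreb1, a gene of that list, did not overlap in cluster 0, at 0.172, 0.229 and 0.174 against 0.245, 0.272 and 0.242, as for 9.74% of genes tested there. It did not overlap in cluster 1 either, at 0.143 to 0.164 for wild type and 0.171 to 0.183 for heterozygous libraries. The same held in cluster 6, at 0.0797 to 0.0946 and 0.120 to 0.161. The shares of all genes for these 2 clusters are not given here. In the D1 class and the D2 class as wholes Rreb1 also lay above without overlap, as for 11.1% and 8.81% of all genes tested. In clusters 10 and 12 the groups overlapped in Rreb1. They also did in the eccentric class, where Rreb1 was 0.166, 0.176 and 0.0612 against 0.313, 0.317 and 0.147. There heterozygous replicates 1 and 2 were highest in Rreb1, as they were in Drd3. In the D1 class as a whole that sum was 0.232 to 0.256 in wild type and 0.243 to 0.397 in heterozygous libraries. With the clusters of the class given the same shares in every library, the Drd3 difference in the D1 class was 0.75 in place of 0.90.

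**Figure D3:**
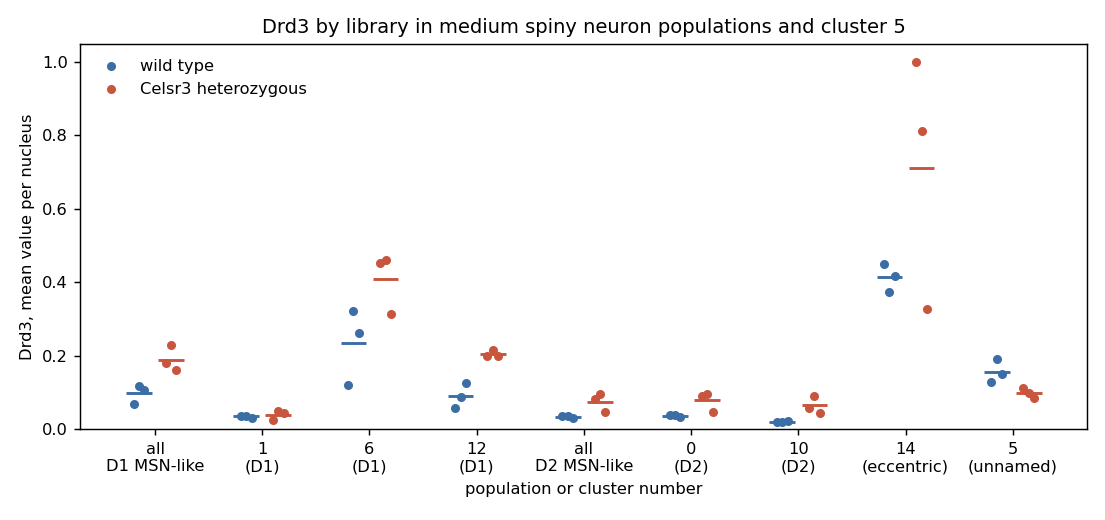
Drd3 mean deposited value per nucleus (vertical axis, linear, from 0) by library in the D1 class and the D2 class, in the clusters that compose them, in the eccentric cluster 14 and in the unnamed cluster 5. Points are libraries and bars group means, wild type in blue and Celsr3 heterozygous in red. The 3 heterozygous points lie above the 3 wild type points in clusters 12, 0 and 10, overlap with them in clusters 1, 6 and 14, and lie below them in cluster 5.

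In the eccentric class Drd3 averaged 0.414 ± 0.0375 for wild type against 0.713 ± 0.348 for heterozygous libraries (log2 difference 0.63 ± 0.33, limma adjusted p = 0.960), and the groups overlapped through heterozygous replicate 3. Drd1 there was 0.681 ± 0.105 and 0.697 ± 0.0333 (limma adjusted p = 0.995). In cluster 5 the order was opposite to that of the D1 and D2 classes. Drd3 was 0.128, 0.192 and 0.151 in wild type and 0.113, 0.0977 and 0.0843 in heterozygous libraries, lower in all 3 (7.79% of genes tested there). The log2 difference was -0.61 ± 0.21 (limma adjusted p = 0.473). Cluster 5 made up between 1.37% and 13.7% of the nuclei of a library, with both extremes among heterozygous libraries. In glutamatergic neuron-like nuclei, Drd3 was detected in 15 of 4033 nuclei, all of them in the heterozygous libraries, at levels of 0.00839, 0.00448 and 0.00561. The positive share was 0.710% of 1549 nuclei, 0.448% of 223, which is a single nucleus, and 0.561% of 535. The wild type libraries held 0 among 583, 207 and 936 nuclei. Of the genes tested in these nuclei, 6.29% lay above in all 3 heterozygous libraries in this way. The gene missed the filter there, and an exact permutation test gave p = 0.1, the smallest possible with 3 against 3 libraries. Drd5 was too rare for a comparison by library within MSN classes, at 0.00195 ± 0.00121 for wild type and 0.00209 ± 0.00137 for heterozygous D1 libraries (exact permutation p = 0.9, two-sided). In the cholinergic class Drd5 was 0.0932 ± 0.0379 and 0.0821 ± 0.0662 (exact permutation p = 0.9, two-sided).

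Co-detection was expressed as the share of nuclei with both receptors divided by the product of their single shares, so that 1 stands for unrelated detections where all nuclei of a class share the same levels. Clusters within a class differ in Drd3, so a ratio over a whole class can depart from 1 without a relation inside its clusters. Over all nuclei the ratio was 0.667 ± 0.0552 for Drd1 with Drd2 and 2.10 ± 0.226 for Drd1 with Drd3 (SD, n = 6), taken across classes that hold different receptors. Within the D1 class, 397 nuclei held Drd1 with Drd2, where 409 were given by the products of the shares, summed over libraries. The ratio was 1.01, 1.19 and 0.918 in wild type and 0.873, 0.800 and 0.966 in heterozygous libraries, overlapping groups with a mean of 0.960 ± 0.134 (exact permutation p = 0.2 between genotypes, two-sided). Within the D2 class, 687 nuclei held both against 682, at a ratio of 1.01 ± 0.0135. Drd2 was positive in so many nuclei of that class that no pair with it could exceed a ratio of 1.02 to 1.06, depending on the library, so a ratio near 1 there says little about how the detections relate. For pairs with Drd1 in the D1 class the highest possible ratio was 1.39 to 1.68. The Drd2 share of the D1 class and the Drd1 share of the D2 class were near those of microglia, and the part of free RNA in these pairs was not tested.

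Drd1 and Drd3 occurred together in 605 nuclei of the D1 class, against 579 given by the product, so that 67.7% of the Drd3-positive nuclei also held Drd1. The ratio was 1.00, 1.01 and 1.03 in wild type and 1.03, 1.07 and 1.09 in heterozygous libraries. The heterozygous libraries lay above the wild type ones (exact permutation p = 0.1, two-sided, the smallest possible), with the nearest pair at 1.031 and 1.028. Within clusters the order was not the same: the mean ratio was 0.953 for wild type and 1.06 for heterozygous libraries in cluster 6, but 1.18 and 0.853 in cluster 12 (exact permutation p = 0.1 in each). Among nuclei with 2500 to 3500 genes detected the ratio was 1.01 ± 0.0699 and the exact p 0.6. Drd2 and Drd3 occurred together in 277 nuclei of the D2 class against 278, at a ratio of 1.01 ± 0.0297 under the same ceiling, and 95.8% of the Drd3-positive nuclei held Drd2, as did 96.2% of the class. In the D1 class the same pair was found in 52 nuclei against 67.5, at a ratio of 0.683 ± 0.275 that lay below 1 in 6 of 6 libraries. Within cluster 6 it was 0.605 ± 0.255, from 36 nuclei against 49.9, and also below 1 in all 6.

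**Figure D4:**
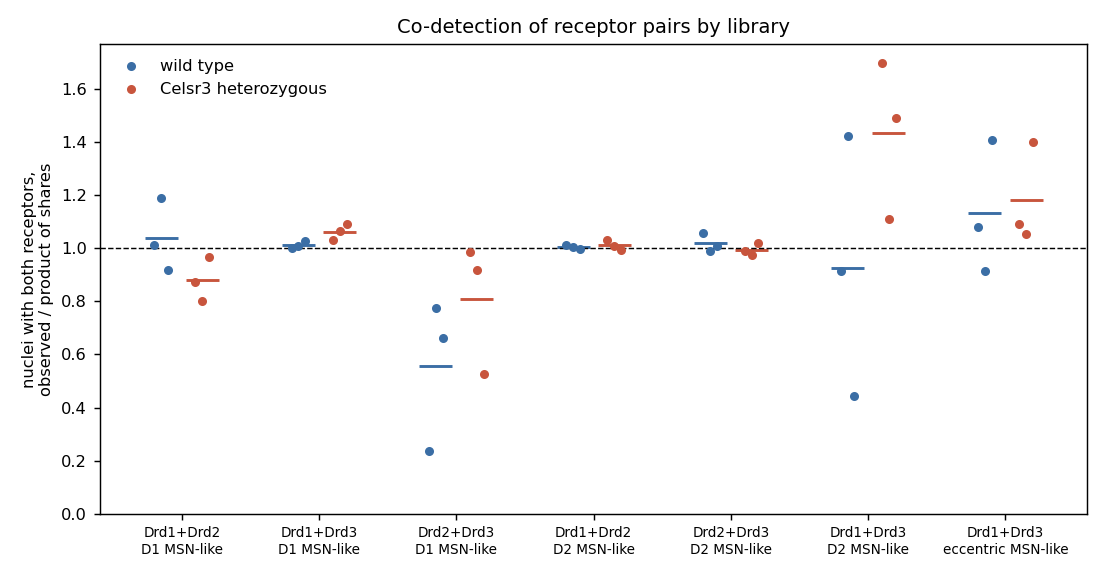
Ratio of observed co-detection to the product of single shares (vertical axis, linear, from 0, with a dashed line at 1) for receptor pairs within 3 MSN-like classes. Points are libraries and bars group means, wild type in blue and Celsr3 heterozygous in red. Pairs with Drd2 in the D2 class lie near 1, where they cannot exceed 1.02 to 1.06, and Drd2 with Drd3 in the D1 class lies below 1 in all 6 libraries, between 0.236 and 0.984.

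By combination, 53.1% of the D1 class held Drd1 alone, 6.73% Drd1 with Drd3, 4.28% Drd1 with Drd2, and 29.3% none of the 4 receptors. Of the D2 class, 82.9% held Drd2 alone, 9.18% Drd1 with Drd2, 3.39% Drd2 with Drd3 and 3.34% none. The eccentric class was the most mixed: 24.8% held Drd1 alone, 15.9% Drd3 alone, 15.3% both of these and 34.9% none. Its ratio for Drd1 with Drd3 was 1.16 ± 0.201, with 193 nuclei against 172. In the cholinergic class, 11 of the 14 Drd5-positive nuclei also held Drd2, where 10.1 were given by the product.

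The genes whose levels ran most like each receptor's were named by Pearson's r of log2 levels across the 34 clusters of at least 100 nuclei, a description in which all clusters share the same 6 libraries. For Drd1 these were Adra2c, an adrenergic receptor (r = 0.771), Impg1 (0.762), Pdyn (0.750), Il20ra (0.749) and Tac1, the gene of substance P (0.717). For Drd2 they were Ankk1 (0.890), Upb1 (0.777), the adenosine receptor gene Adora2a (0.689), Chat of acetylcholine synthesis (0.674) and Gpr6 (0.650). Pdyn, Tac1, Upb1, Adora2a, Chat and Gpr6 are also among the markers that named the classes. Ankk1, the nearest coding gene to Drd2, lies 7017 bases away on the opposite strand, and whether counting used strand is not given in the sources used here. Its level was 0.180 ± 0.0383 in the D2 class and at most 0.00545 in 6 other classes examined. In the 196 cholinergic nuclei it was 0.50, 0.410 and 0.379 in wild type and 0.179, 0.132 and 0.105 in heterozygous libraries. These groups did not overlap, as for 4.11% of the 1240 genes tested in that class. Ankk1 was not among the genes tested there and was singled out after its values were seen. The nearest coding genes of Drd1 and Drd3 ran less alike with them, with r = 0.324 for Sfxn1 and 0.086 for Qtrt2.

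For Drd3 the genes were Smarcd3 (0.692), Tmprss4 (0.677), Gpr149 (0.676), Cacng5 (0.669) and Sv2c (0.668), each weaker than the first gene of the other receptors. For Drd5 they were Qrfprl (0.791), Col9a2 (0.785), the vesicular glutamate transporter gene Slc17a8 (0.785), Ufsp1 (0.784) and Hcrtr2, an orexin receptor (0.756), all highest in the cholinergic cluster. That cluster was itself led by Slc5a7, the choline transporter, Slc17a8, Qrfprl, Tacr1 and Popdc3. Cluster 14, where Drd3 was highest by its mean over nuclei, was led by Npffr2, Gm40663, B020031H02Rik, Chst9 and Casz1. Among the receptors themselves, r was 0.391 for Drd1 with Drd3, 0.252 for Drd2 with Drd3 and -0.170 for Drd1 with Drd2.

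The genes around the receptors were followed in 8 lists of dopamine supply, receptor coupling, downstream effectors and striatal regions, 63 genes in all without the receptors. None was called by limma in all nuclei (60 tested), in the D1 class (54 tested) or in the D2 class (54 tested), and 5, 11 and 7 had an unadjusted p under 0.05, beside 9.92%, 9.83% and 8.47% of all genes tested. Of the 5 genes of dopamine synthesis, storage, uptake and breakdown tested in the D1 class, 3 had values above 0, with a median of 0.078 beside 0.054 for all genes. In the D2 class 1 of 4 did, with a median of -0.24 beside 0.036. Slc18a2, the vesicular monoamine transporter, was at 0.229 for wild type and 0.161 for heterozygous libraries in the D1 class (log2 difference -0.50 ± 0.14, limma adjusted p = 0.310), and at 0.214 and 0.154 in the D2 class. Aldh1a1, an aldehyde dehydrogenase, was at 0.0470 and 0.0205 in the D1 class (-0.81 ± 0.28, limma adjusted p = 0.393). For both genes the heterozygous libraries were the 3 lowest in the D1 class and also in the D2 class, as for 5.19% and 5.46% of all genes tested.

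Of the 6 genes of D1-like coupling tested in the D1 class, 5 had values above 0 (median 0.084), with Adcy5, the main striatal adenylyl cyclase, at 4.77 and 5.22 (limma adjusted p = 0.508) and Gnas, the Gs subunit, at 0.352 and 0.395. Of the 10 genes of D2-like coupling, 7 did (median 0.080), with the inhibitory subunits Gnai1 at 0.286 and 0.350 and Gnai2 at 0.0970 and 0.115. Of 9 receptor kinases, arrestins and binding proteins, 5 did (median 0.11), with Ncs1, a calcium sensor that binds the D2 receptor, at 0.360 and 0.425 and Arrb2, a beta-arrestin, at 0.0897 and 0.0747. Of 12 cyclic AMP and DARPP-32 effectors, 9 did (median 0.12), with Ppp1r1b, which encodes DARPP-32, at 0.707 and 0.820 (limma adjusted p = 0.430) and the kinase gene Akt1 at 0.0906 and 0.105. In the D2 class 11 of these 12 effectors had values above 0 (median 0.099, beside 0.036 for all genes). The other lists ran lower there: 3 of 6 D1-like coupling genes had values above 0 (median 0.017) and 7 of 10 D2-like coupling genes (median 0.031). Of the 9 receptor kinases, arrestins and binding proteins 4 did (median -0.0014).

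The region lists were examined because Drd3 is known from the ventral striatum. In the D1 class, 5 of 6 ventral striatum genes tested had values above 0, with a median log2 difference of 0.34, among them Cartpt, a neuropeptide gene, at 0.0181 and 0.0371 (limma adjusted p = 0.285) and Dlk1 at 0.0523 and 0.0834 (limma adjusted p = 0.484). The summed level of all 10 ventral genes overlapped, at 0.834, 0.733 and 0.734 in wild type and 0.721, 1.03 and 0.976 in heterozygous libraries, with heterozygous replicate 1 the lowest of the 6. Both islands of Calleja genes tested had values above 0, Cpne4 at 0.0906 and 0.143 and Rreb1 at 0.127 and 0.162. All 4 dorsal striatum genes were below 0 (median -0.11), with the cannabinoid receptor gene Cnr1 at 2.68 and 2.31 and Gpr155 at 1.45 and 1.33. Their sum overlapped too, at 5.96, 10.1 and 9.24 against 7.62, 7.06 and 7.82, with wild type replicate 1 the lowest of the 6. In the D2 class these counts were 3 of 6 above 0 for ventral, 1 of 3 for islands and 1 of 4 for dorsal genes. These lists were written with earlier results of the same data known and are not independent of the Drd3 values.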

How the data were processed

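Nuclei from dissected striatum of 3 wild type and 3 Celsr3 heterozygous biological replicates were profiled with 10x Genomics 3' v3.1 chemistry and sequenced together on 1 lane, per the labels' protocols. The submitters' processing notes name Cell Ranger, Seurat 4.1 and mm10/GRCm38; normalization, strand and filters are not given in the sources used here. The deposited table holds a score: whole-number, depth-corrected UMI values, read as such from totals of 4523 to 10638 per nucleus, so the original depth is unknown and no counting intervals were computed. Floors use 3 counts and cover counting error only.

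The members and lists, and the tests, were chosen with earlier results of these data known. Clusters came from 2000 variable genes, 30 principal components, 15 neighbours and Leiden resolution 1 (scanpy 1.11.5), without the receptors. A class needed at least 3 markers over 2-fold, and an MSN class also Ppp1r1b at 2 times its glutamatergic level. That limit was set after values were seen and leaves cluster 5, at 1.19 times, unnamed. With 6 eccentric MSN markers high, cluster 5 would otherwise have been named eccentric MSN-like, beside cluster 14. The limit is not particular to MSN, since the microglia-like cluster 7 stood at 2.70 times. By its own markers, 95.8% of D1 and D2 MSN-like nuclei kept their class. Scrublet scores above 0.25, and clusters with over 40% of them, removed 790 nuclei (1.62%). Levels per library, as log2(mean + 0.01), were tested with limma 3.58.1 (R 4.3.3) where the mean was at least 0.02 and the summed value averaged 30 per library, with Benjamini-Hochberg adjustment over all genes, and fold changes of low genes are understated on this scale. The fit was tested on simulated data. Other values had exact permutation tests over libraries. Genes named were the receptors, genes called or with the 2 largest differences per list, the 5 most alike per receptor and the 5 leading genes of the clusters highest in Drd3 or Drd5. Leading genes of other clusters are given only to describe them and were chosen after their values were seen. The alternatives tried were other pseudocounts, scaling, filters, weights, thinning, doublets kept, a replicate block and each library left out.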

Additional observations from a re-analysis of the deposited data

Results flagged for a closer look

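The order of the genotypes in Drd3 was opposite in medium spiny neurons and in cluster 5. The 3 heterozygous libraries were the 3 highest in the D1 class and in the D2 class, and the 3 lowest in cluster 5, orders shared by 11.1%, 8.81% and 7.79% of the genes tested there. The difference between the genotype values, taken within libraries on the log2 scale, was 1.51 ± 0.17 for D1 MSN-like minus cluster 5 (SE; limma adjusted p = 0.175). For D2 MSN-like minus cluster 5 it was 1.51 ± 0.22 (limma adjusted p = 0.675). Neither passed after adjustment over all genes, and cluster 5 was chosen for this comparison after its values were seen. Its separation from the eccentric class also rests on the Ppp1r1b limit set after values were seen.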

How the results depend on the processing

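Over 21 results, 307 of 332 alternatives kept the direction and the side of the threshold, or moved a value by less than the spread. This count does not measure robustness. A replicate block or a lifted filter cannot change a log2 difference in this balanced design, nor can array weights for the untested Drd5. As no main result had passed the threshold, staying on its side was the usual outcome. With array weights Drd3 passed the adjusted threshold at 0.85 in the D1 class and 1.05 in the D2 class. Of 54 list genes tested in each class, 1 was called in the D1 class (Cartpt) and 1 in the D2 class (Pde4b). Under the same weights 357 of all 13435 genes were called in the D1 class and 184 of 12723 in the D2 class. These calls are therefore not particular to the receptors or the lists. Drd2 in all nuclei was 0.041 with the same cluster shares in every library, and Drd1 was -0.11 in cluster 12 alone, a setting chosen after seeing the data. The Drd3 difference between both MSN classes, 0.0010 for D1 minus D2, was -0.089 at a pseudocount of 0.001, -0.022 with size factors and -0.078 with array weights. That difference was -0.16 with the same cluster shares in every library and -0.025 when thinned to 4500. Drd5, untested, was 0.21 in all nuclei and moved to 0.056 at a pseudocount of 0.05 and 0.60 at 0.001. At 0.001 it was 0.47 in the D2 class, from 0.14, and -0.44 for D1 minus D2 class, from -0.13. At a value of 2 or more the co-detection ratio was 0.708 for Drd1 with Drd2 in the D1 class (19 nuclei), 1.02 in the D2 class, and 0.873 for Drd2 with Drd3 in the D2 class. Thinned, Drd1 with Drd2 in the D2 class was 1.03. The cause of these moves was not tested.

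Leaving out each library gave 0.15 to 0.41 for Drd1 in the D2 class, at the extremes without wild type replicates 3 and 2, and 0.088 to 0.29 for Drd2 in the D1 class, at the extremes without heterozygous replicates 2 and 1. It gave -0.32 to 0.13 for Drd2 in all nuclei and -0.013 to 0.10 in the D2 class, 0.69 to 1.03 for Drd3 in the D1 class and 0.72 to 1.17 in the D2 class, and 0.59 to 1.01 in all nuclei. For D1 minus D2 class it gave -0.26 to 0.027 for Drd1, 0.024 to 0.20 for Drd2 and -0.22 to 0.13 for Drd3. List genes called ran from 0 to 1, the 1 being Reln without wild type replicate 1. Genes called in the D1 and D2 classes, 2 and 1, numbered 357 and 184 with array weights and 197 and 142 without wild type replicate 1. With the replicate number as a block, Drd3 was at an adjusted p of 0.0979 in the D1 class and 0.117 in the D2 class, and 3, 10 and 0 genes were called in the D1 class, the D2 class and all nuclei. Same-numbered libraries correlated at 0.270, 0.017 and 0.183 in the D1 class and at 0.258, 0.050 and 0.178 in the D2 class. In the D1 class wild type replicate 2 correlated best with heterozygous replicate 3 (0.209). These are deviations from means of 3 libraries, so they do not settle whether same-numbered libraries were prepared together, which the labels do not give.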

Other observations

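In cluster 5 the 198 Drd3-positive nuclei held more Trdn (0.545 against 0.107), Tcf7l2 (0.732 against 0.192) and Sema3a (1.77 against 0.747) than the 2610 negative nuclei, and less of the long noncoding RNA Sox2ot (1.69 against 4.08). These genes were chosen after their values were seen, and the nuclei come from 6 libraries in unequal numbers.

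In OPC-like nuclei Drd2 averaged 0.964 in heterozygous replicate 1, over only 28 nuclei of which 28.6% were positive, and 0.0816 to 0.194 in the other 5 libraries.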
